A study of Arabidopsis thaliana with 4 samples.

Results

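TA plates 37 to 51 formed the longest run of consecutive low plates on an array that measured dimethylation of lysine 4 of histone H3 (H3K4me2) in Arabidopsis thaliana. Its members were all probes whose names began with TA and a plate number from 37 to 51 and which had a value. These were 1352 of the 21728 probes with values, or 6.22%. A name gives the plate series, the plate, the row and the column, so TA37B04 was in plate 37, row B, column 4 of the TA series. The plates were chosen by their medians in these same data, each under -1 in the mean of both replicates. The files used here gave no gene, sequence or genome position for a probe. No member could therefore be called genic or intergenic, and no sequence is shown.

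The samples were whole untreated Col-0 seedlings aged 10 days, raised in liquid medium at 22 °C under a photoperiod of 16 hours. DNA immunoprecipitated with an antibody to H3K4me2 was hybridised with its input DNA on 4 arrays, a dye swap for each of replicates I and II. Both columns of a dye swap were identical (0 of 21800 features differed), so each swap was 1 profile and n was 2. There was 1 group only, and the sources used here do not say whether I and II were grown separately, so the spread between them may be technical.

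H3K4me2 is a mark of nucleosomes along genes. In Arabidopsis it is found on the bodies of genes, whether strongly or weakly expressed, and is scarce in compact heterochromatin, where transposable elements and other repeats are silenced by DNA methylation and by dimethylation of another lysine of histone H3. A low ratio of immunoprecipitate to input is how such an array would show a scarce mark. The deposited values did not settle which channel was the numerator, however, so "low" and "high" here refer to the deposited log ratio and not to an amount of the mark. The base of the logarithm was not stated either, and no fold change is given.

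Each profile was centred on its median over all valued probes, so that 0 is the median probe of the array. The median of the block was -1.56 in replicate I and -1.70 in replicate II, which gives -1.63 ± 0.10 (SD, n = 2). The middle part of its members, from the lower to the upper quartile, ran from -1.70 to -1.30 in replicate I and from -1.88 to -1.44 in replicate II. Over all probes the quartiles were -0.90 and 0.64 in replicate I and -0.92 and 0.67 in replicate II. Even the upper quartile of the block thus lay under the lower quartile of the array in both replicates. The block was chosen for this low level, so these values describe it and test nothing.

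**Figure D1:**
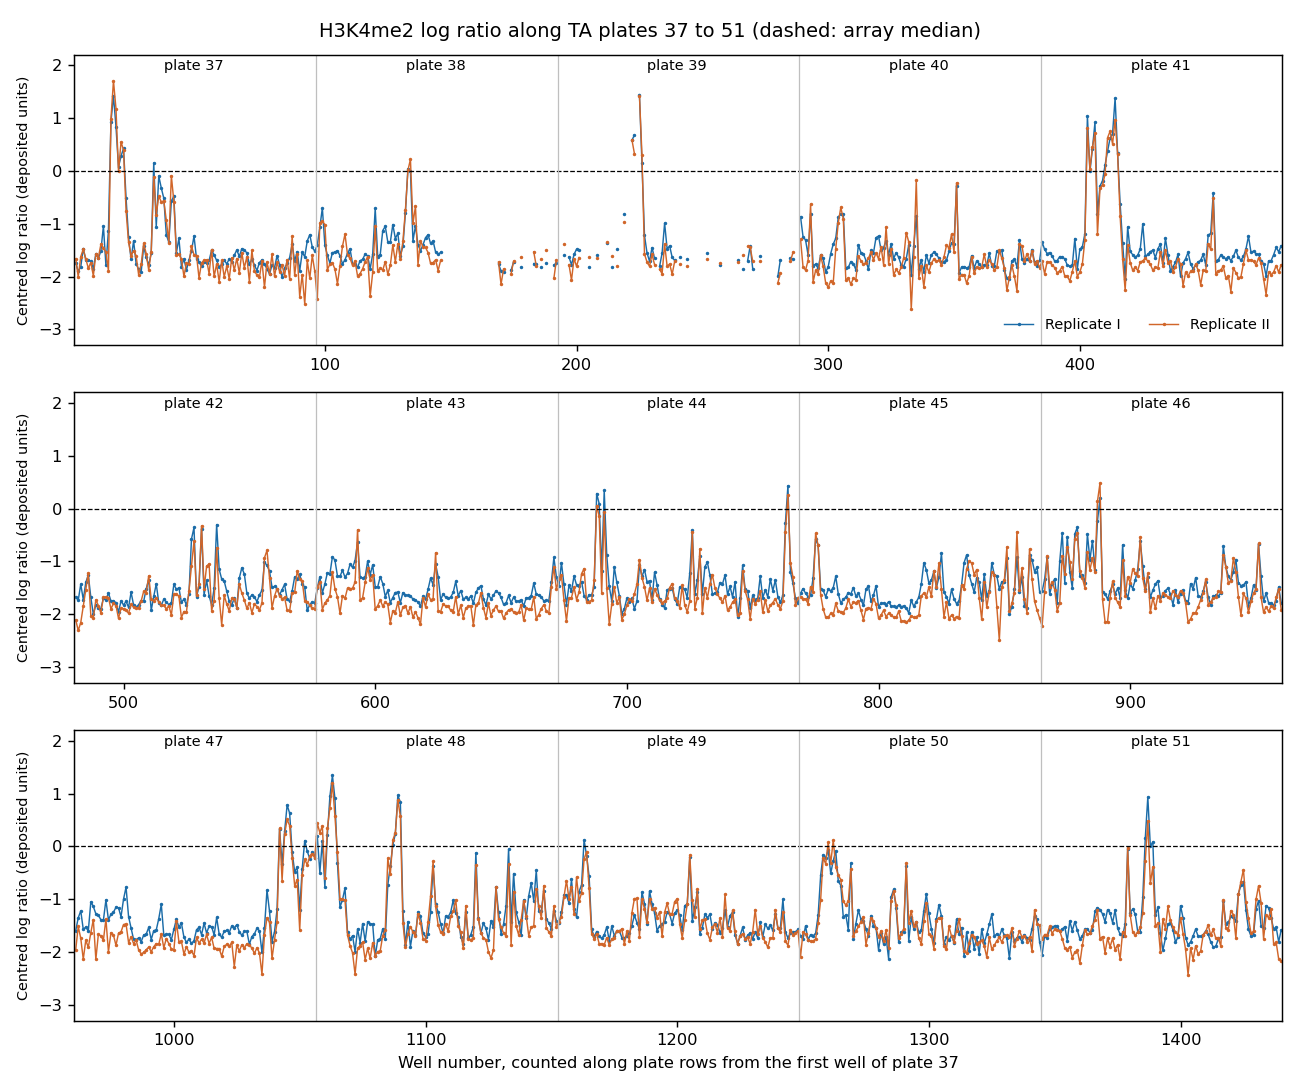
Centred log ratio (vertical axis, deposited units) against well number counted along plate rows from the first well of plate 37 (horizontal axis), with 5 plates per panel, 1 point per probe and a line broken where a well held no probe. Both replicates run near their medians of -1.56 and -1.70 over most wells and rise together above the array median at 0 in a few narrow stretches.

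Most members were called lower than the median probe. With limma and Benjamini-Hochberg adjustment over all probes at 0.05, 1284 members (94.97%) were lower, where 40.2% of all probes were, and 28 members (2.07%) were higher, where 40.3% of all probes were. The remaining 40 did not pass the threshold. The rule used these same values, so nothing is read from the gap to the background. The sign was the same in both replicates for 1337 members, negative in 1300 and positive in 37.

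The low level was deep as well as wide. Of all probes with a mean of both replicates under -1.5, 2468 in number, the block held 908 (36.8%). Of the lowest 1% of the array, 217 probes, it held 77 (35.5%), and of the highest 217 it held 0. The block made up 6.22% of all probes and was chosen for its low level, so these shares describe it and test nothing. The depth had a limit, since only 29 members (2.1%) had a mean under -2, where 0.49% of all probes did. That limit differed between replicates, with 12 members (0.89%) under -2 in replicate I and 141 (10.4%) in replicate II. Over all probes these shares were 0.29% and 1.71%.

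The 5 lowest members were scattered over 4 plates. TA40D09 was the lowest, with -1.96 in replicate I and -2.62 in replicate II. TA47G03 followed at -2.0 and -2.42, and TA48B04 at -1.99 and -2.42. These probes lay far apart along the plates, and replicate I placed each of them close to -2. TA41H06 was at -1.99 and -2.34, and TA41C10 at -2.05 and -2.25. All 5 were lower in replicate II, and TA40D09 was also the one with the widest gap between replicates, at -0.65 (replicate II minus replicate I). TA41C10 lay only 4 wells after the high probe TA41C06, described further on.

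Plate by plate, the level was even. Plate medians ranged from -1.67 to -1.35 in replicate I and from -1.85 to -1.51 in replicate II, and their standard deviation over the 15 plates was 0.081 and 0.0998. Taking the mean of both replicates, plate 43 was the lowest, with medians of -1.60 and -1.85. Plate 40 (-1.67 and -1.76) and plate 42 (-1.66 and -1.76) came next. The highest were plate 48, with -1.35 and -1.51, plate 49, with -1.5 and -1.54, and plate 46, with -1.5 and -1.60. The replicates of a single plate differed by as much as 0.30 (plate 47, -1.53 and -1.83), so most plates cannot be ordered beyond the spread between replicates. Plate 48 was the highest in replicate I and in replicate II alike.

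The remaining plates lay close together. Plate 37 had medians of -1.65 and -1.67, plate 38 of -1.55 and -1.71, and plate 39 of -1.60 and -1.71. Plate 41 was at -1.58 and -1.79, plate 44 at -1.52 and -1.70, and plate 45 at -1.57 and -1.80. Plate 50 was at -1.61 and -1.65 and plate 51 at -1.54 and -1.64. In the mean of both replicates these 8 plates lay between plates 43 and 48, as they must, since those were the lowest and the highest. Divided after the values were seen, the 776 probes of plates 37 to 45 had medians of -1.60 and -1.75, and the 576 probes of plates 46 to 51 had -1.51 and -1.62. The later plates were thus slightly less low in both replicates, and their share of members under -1.5 was 58.3%, against 73.7% in the earlier plates.

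**Figure D2:**
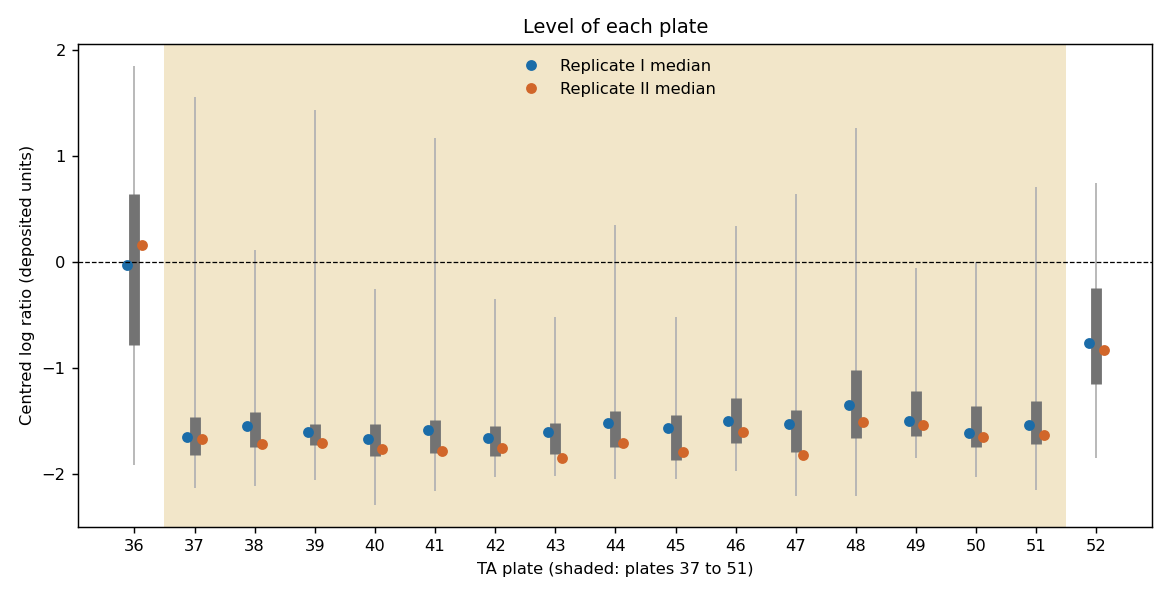
Level of TA plates 36 to 52 (horizontal axis) as centred log ratio in deposited units (vertical axis): points are the medians of replicates I and II, thick bars the quartiles and thin lines the lowest and highest probe of the replicate mean. Medians of the 15 shaded plates stay between -1.85 and -1.35, while the thin lines show single probes reaching 1.56.

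Within a plate most probes were close together, and only part of the spread came from the probes called higher. The median standard deviation within plates, averaged over replicates, was 0.47 with those probes and 0.41 without them. The interquartile range of the replicate mean had a median of 0.36 over the 15 plates and 1.0 over the other 216 plates, of which 10 had a narrower range than that median of the block. In the other long low blocks, compared further on, this median was 0.34 for TC plates 17 to 30 and 0.88 for TA plates 21 to 30. By this measure, evenness within plates was thus not particular to the block. By the standard deviation plate 43 was the most even, at 0.26, with a highest probe of -0.52 and 94 of its 96 probes under -1. All 96 probes were called lower in plates 42, 43 and 45. The most uneven by the standard deviation were plates 41 and 48, each at 0.75, and plate 39 at 0.73, and these held high probes. By the interquartile range, which a few high probes move little, plate 39 with its 42 probes was the most even, at 0.20, before plate 42 at 0.28 and plate 43 at 0.29. In plate 48, 73 of 96 probes were under -1, the smallest share of any plate of the block (76.0%).

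Plate rows of 12 wells gave the same picture at a finer scale. Of 119 rows with probes, 110 had a median under -1, 85 of them under -1.5, and in 66 rows every probe was under -1. Only rows C of plate 39 and A of plate 48 had a median of the replicate mean above 0. Row C of plate 39, with 7 probes, had 0.14 in replicate I and 0.29 in replicate II, whereas row A of plate 48 was at -0.11 and 0.30, so the replicates differed in sign there. Levels differed little by place on the plate, since medians by column ran from -1.68 to -1.58 and by row letter from -1.72 to -1.58.

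**Figure D3:**
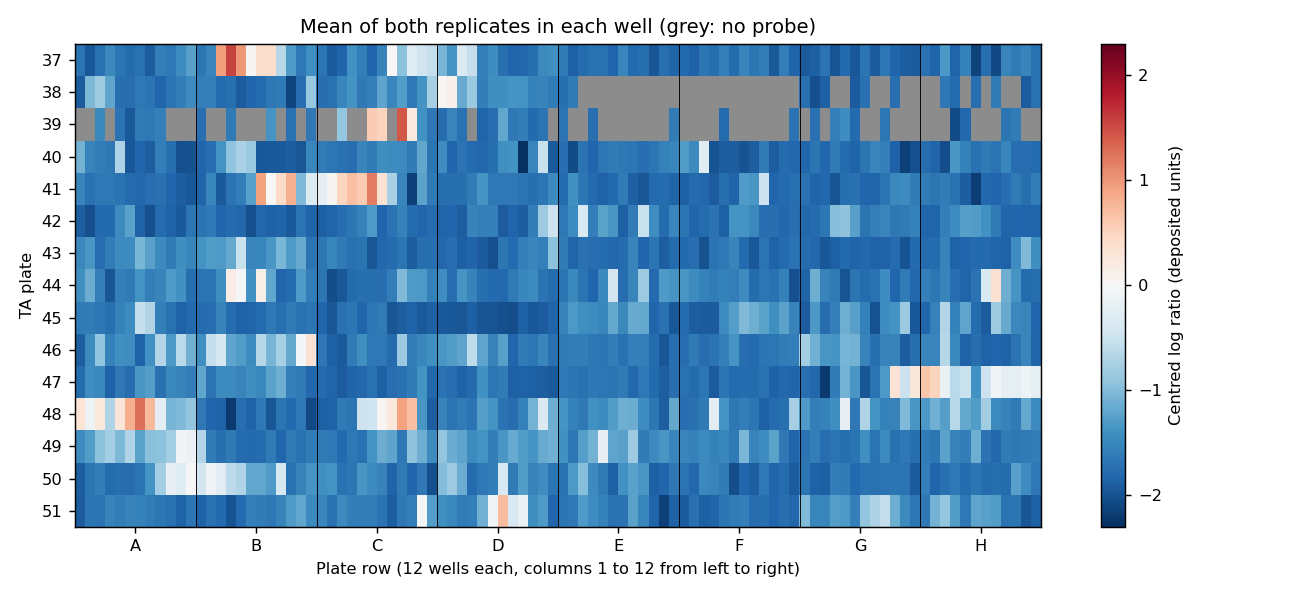
Mean of both replicates in each of the 96 wells (horizontal axis, rows A to H with columns 1 to 12) of TA plates 37 to 51 (vertical axis), as centred log ratio in deposited units, with blue below and red above the array median and grey where no probe was listed. Red wells form short runs along a row in a few plates, and grey is confined to plates 38 and 39, which lacked 34 and 54 wells.

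Long unbroken stretches lay between the raised ones. Members with a mean under -1 numbered 1201 and formed 69 runs of consecutive probes. The longest ran from TA46H04 to TA47G09 and held 90 probes, with medians of -1.59 and -1.85. The next ran from TA50E04 to TA51C10 with 79 probes (-1.61 and -1.72), and from TA45A09 to TA45G10 with 74 (-1.59 and -1.89). TA41F10 to TA42D10 held 73 probes, at -1.70 and -1.84, and TA43E01 to TA44B03 held 63, at -1.64 and -1.85. Together these 5 runs held 28.0% of the block, and 4 of them passed over a plate border without a break. Within the 5, the standard deviation of the replicate mean lay between 0.16 and 0.27.

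The spread between replicates is given for the whole block and for its low probes. The low probes made up most of the block, so both values rest largely on the same probes. The standard deviation of the difference between replicates was 0.23 across all 1352 members and 0.23 among the 1201 members under -1. Across all members, which share both arrays, Pearson's r between replicates was 0.908 and Spearman's rho 0.708. Among the members under -1, r was 0.60, over a range that the limit of -1 itself narrows.

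Replicate II was lower than replicate I in most members of the block. The difference, replicate II minus replicate I, had a median of -0.14, and 1010 members (74.7%) were lower in replicate II. Medians were lower in replicate II in 15 of 15 plates, by 0.02 in plate 37 and by as much as 0.30 in plate 47. Among the 3662 probes elsewhere with a mean under -1, the median difference was -0.09 and 65.3% were lower in replicate II, against -0.15 and 76.8% of the 1201 members under -1. The median difference was -0.13 over all probes of TC plates 17 to 30, close to that of the block, and -0.07 over those of TA plates 21 to 30. Replicate II also had the wider spread over the array, with a median absolute deviation of 0.76 against 0.74. With both profiles scaled to the same deviation, the median difference in the block was -0.09 and 66.5% of members were lower in replicate II. The part of scale or background in this offset was not tested.

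The high probes were few and lay together. All 28 members called higher were positive in both replicates, with means from 0.31 to 1.56, and their replicates differed by at most 0.45. Counted in the order of members, passing over missing wells, they formed 14 runs, 6 of them single probes, the longest of 5 probes. They lay in 8 of the 15 plates. Plates 41, 48 and 37 held 8, 6 and 5 of them. Plates 39 and 47 held 3 each, and plates 44, 46 and 51 had 1 each. Of the 26 members next to them in that order, 13 were called lower and 13 did not pass the threshold. Among these was TA39C03, which missing wells parted from TA39C06. Centred on the main mode of each profile (0.51 and 0.63), which lay above the median, 7 of the 28 were still higher: TA37B03, TA37B04, TA37B05, TA39C09, TA41B07, TA41C06 and TA48A07.

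A raised stretch was taken, after the profile had been seen, as a run of consecutive members with a mean of at least -1 and at least 1 member called higher. There were 10 such stretches with 62 members (4.59% of the block). By this definition every one of the 28 high probes had to lie in a stretch. The stretches also held 21 members that did not pass and 13 called lower. They were 2 to 15 probes long. Without their members the medians of the block were -1.57 and -1.71 (1290 members).

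The stretch with the highest peak in the mean of both replicates lay near the start of the block, from TA37B03 to TA37B09. Its first well stood next to a low one: TA37B02 was at -1.13 and -1.89, and TA37B03 at 0.93 and 0.99, the largest step between consecutive wells in the block in replicate II and in the mean of both. In replicate I the step from TA41B06 to TA41B07 was larger. TA37B04, the highest member in that mean, reached 1.42 in replicate I and 1.70 in replicate II, and 1.482% of all probes on the array were higher. From there the level went down in steps. TA37B05 was at 0.84 and 1.18 and TA37B06 at 0.07 and -0.01. TA37B07 (0.28 and 0.55) and TA37B08 (0.43 and 0.40) were again above the median, TA37B09 was at -0.51 and -0.75, and TA37B10 was back at -1.26 and -1.35. The stretch thus had a sharp side and a gradual one in both replicates.

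In plate 39 the high probes stood among missing wells. TA39C03 was at -0.82 and -0.97, no probe was listed for the next 2 wells, and TA39C06 was at 0.58 and 0.59. TA39C07 was at 0.68 and 0.33, the next well was missing, and TA39C09 was at 1.44 and 1.42, with 2.46% of all probes higher. TA39C09 was the highest member in replicate I. TA39C10 was at 0.14 and 0.29, and TA39C11 at -1.22 and -1.57, so both replicates came down within 2 wells of the peak. With 5 probes over 8 wells, the outline of this stretch is known only in part.

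Plate 41 held 2 raised stretches that were parted by a single low well. TA41B06 was at -1.19 and -1.31 and TA41B07 at 1.04 and 0.80, again a step of more than 2 units. TA41B08 was near the median, at -0.01 and 0.04, TA41B09 was at 0.42 and 0.45, and TA41B10 at 0.92 and 0.72. TA41B11, at -0.82 and -1.2, marked the gap, and its mean of -1.01 lay just under the limit, so that with a limit of -1.2 both stretches joined. The level then climbed over several wells. TA41B12 was at -0.29 and -0.33, TA41C01 at -0.19 and -0.27, and TA41C02 at 0.11 and -0.06. TA41C03 (0.37 and 0.62), TA41C04 (0.62 and 0.75) and TA41C05 (0.71 and 0.51) led up to TA41C06, at 1.38 and 0.97. TA41C07 was at 0.34 and 0.31, and these 5 consecutive probes were the longest run of high calls. TA41C08 was at -0.62 and -0.86 and TA41C09 at -1.37 and -1.68, so here the gradual side came first and the sharp side last.

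The widest raised region crossed a plate border. It began at TA47G10 (0.33 and 0.34), after TA47G09 at -1.19 and -1.44, and its first part ended at TA47H05. The peak of that part was TA47H01, at 0.78 and 0.51, with TA47H02 at 0.63 and 0.39. One low well, TA47H06 at -1.2 and -1.59, parted it from the second stretch of 15 probes, which ran from TA47H07 to TA48A09. Over the border itself the level was near the array median: TA47H12, the last well of plate 47, was at -0.21 and -0.22, and TA48A01, the first of plate 48, was at 0.19 and 0.44. The peak followed at TA48A06 (0.95 and 0.73), TA48A07 (1.34 and 1.20) and TA48A08 (0.91 and 0.57). TA48A02 was below the median in replicate I and above it in replicate II, at -0.497 and 0.26. Of the 15 probes, 4 were called higher, 9 did not pass and 2 were lower, so this stretch was long but mostly at the level of the median probe.

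Another stretch in plate 48 rose in steps and broke off. TA48C04 before it was at -1.76 and -1.58. TA48C05 was at -0.73 and -0.22, TA48C06 at -0.37 and -0.53, TA48C07 at 0.02 and 0.12, and TA48C08 at 0.24 and 0.26. TA48C09 reached 0.97 and 0.87, and TA48C10 was at 0.83 and 0.57. The next well, TA48C11, was at -1.22 and -1.45, so the level dropped by 2.06 in replicate I and dropped by 2.01 in replicate II. The step down was thus larger than the step up in both replicates.

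The other 3 stretches were short. In plate 44, TA44H08 was at 0.43 and 0.26 beside TA44H07 at -0.27 and -0.45, with TA44H06 (-1.64 and -1.75) and TA44H09 (-1.197 and -1.03) around them. In plate 46, TA46B12 was at 0.20 and 0.48 after TA46B11 at -0.23 and 0.14. TA46C01 beyond it was at -1.58 and -1.72. Each of these stretches thus held 1 high probe that barely passed the threshold. In plate 51, TA51D07 was at 0.93 and 0.48, the widest gap between replicates among the high probes, while TA51D06, TA51D08 and TA51D09 were above 0 in replicate I and below it in replicate II.

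**Figure D4:**
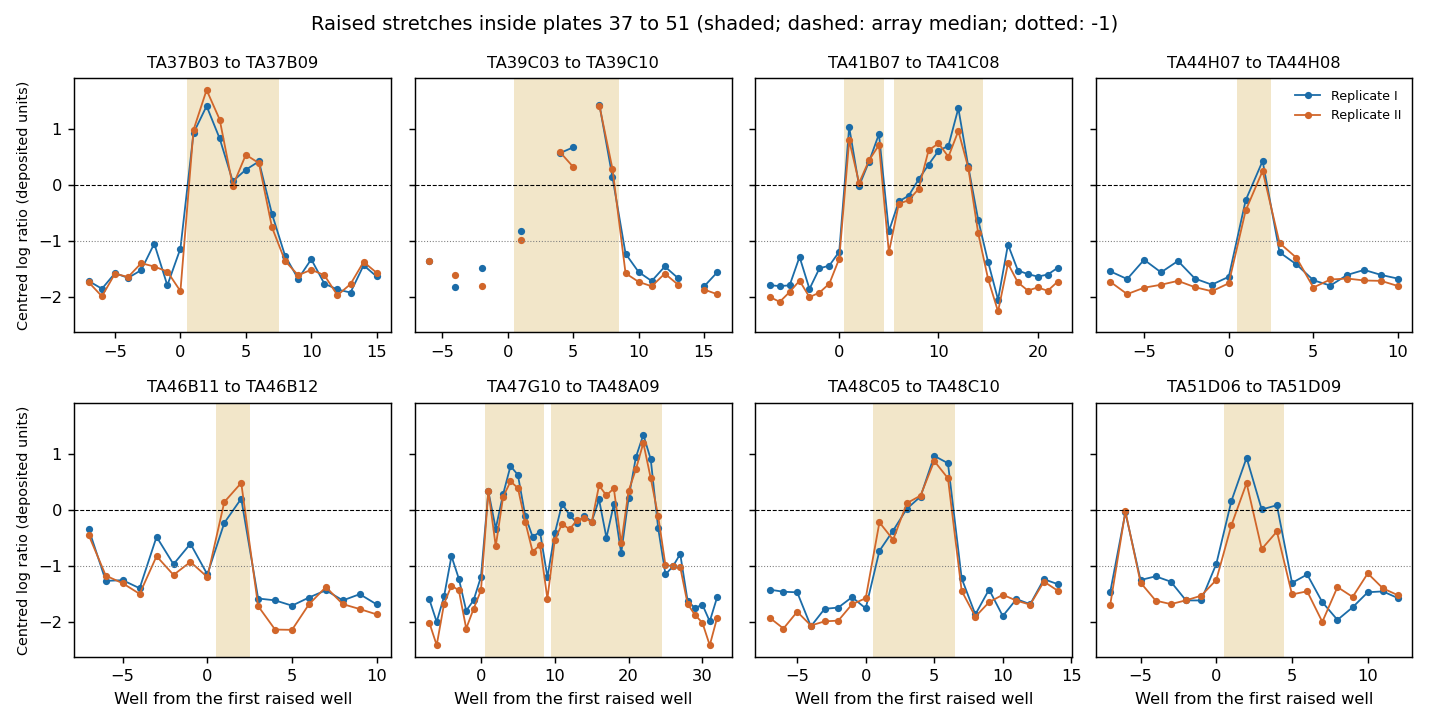
The 10 raised stretches (shaded) in 8 windows, with 8 wells on either side: centred log ratio in deposited units (vertical axis) against wells counted from the first raised well (horizontal axis), 1 point per probe and replicate. Both replicates trace similar outlines, from the sharp first edge at TA37B03 to the sharp last edge after TA48C10. At that last edge the level dropped by 2.06 in replicate I. Some probes differ in sign between replicates, among them TA51D06, TA51D08 and TA51D09.

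Further members came up without being called higher. Outside the raised stretches, 89 members had a mean of at least -1. They formed 58 runs, of which 44 were single probes, and none had a mean above 0.17. The longest, of 9 probes, ran from TA50A09 to TA50B05, with its top probe TA50A12 at -0.06 and 0.07. Of these 9, TA50A09, TA50B01, TA50B04 and TA50B05 were called lower and the others did not pass the threshold. A run of 6 in plate 49 had its top at TA49A11, at 0.12 and -0.24. In plate 38, TA38D02 was at 0.0006 and 0.22. In plate 44, TA44B04 (0.29 and 0.06) and TA44B05 (0.09 and -0.14) lay before TA44B06, at -1.18 and -1.60. TA44B07 (0.34 and -0.06) lay after it. TA44B07 was a single raised probe between low wells, whereas the plate 50 run was broad and shallow.

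Consecutive probes were alike inside the block. Across 1322 pairs of consecutive wells, the levels of the replicate mean correlated with r = 0.704. This was not particular to the block, since r was 0.80 in TA plates 21 to 30, 0.60 in TC plates 17 to 30 and 0.68 in the TB plates. Inside the block the correlation was 0.541 for probes 2 wells apart, 0.446 for 3, 0.242 for 6 and 0.094 for 12. Probes under -1 had r = 0.461 with the next well (1106 pairs), so the low level itself was not without local structure. These are descriptions over probes that share both arrays. The median size of the step between consecutive wells was 0.17, and 22 steps up and 30 steps down were at least 1.

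All missing wells lay in plates 38 and 39. The block had 1440 wells, 88 of them (6.11%) without a listed probe, 34 in plate 38 and 54 in plate 39, and 0 in the other 13 plates. The longest gap was 22 wells, from TA38E03 to TA38F12, and took all of row F. The other 66 missing wells were scattered in 28 short gaps up to TA39H12, the last well of plate 39, 10 of them single wells. The gap therefore began abruptly and was porous afterwards, with probes in 54 of the 142 wells from TA38E03 to TA39H12.

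Values around the gaps were low too. The 54 members in that stretch had medians of -1.66 and -1.71, against -1.56 and -1.70 for the other members. The 41 members beside a missing well, among them TA40A01 of the next plate, were at -1.68 and -1.70, and the 64 members of plates 38 and 39 with no missing neighbour at -1.48 and -1.72. The order of these last 2 sets turned between replicates, so no difference is read from them. In the stretch with gaps, 50 of 54 members were called lower and 3 higher, the 3 high probes of plate 39. Over the whole block 94.97% were lower and 2.07% higher, and over all probes 40.2% and 40.3%. The block was chosen for its low level, so nothing is read from these counts.

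Most missing wells of the TA and TB series lay in the TA low blocks. Of 190 wells without a value in the 199 TA and TB plates, 88 lay in plates 37 to 51 and 76 in TA plates 21 to 30. Both blocks thus held 86.3% of the missing wells and 12.6% of all wells of these 2 series. Of the 76, 36 lay in TA plate 22 and 19 in TA plate 29. The TC series was left out of this count, and TC plates 17 to 30 also lacked wells, with 1122 probes on 13 plates of 96 wells. Why these wells held no probe is not given in the sources used here.

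The borders of the block fell between whole plates, chosen by their medians, and were not placed well by well. A plate median beyond each border that was not under -1 was thus part of the choice. The plate before it, TA plate 36, had medians of -0.03 and 0.16, and the plate after it, TA plate 52, had -0.76 and -0.83. Row H of plate 36 was already low, at -1.46 and -1.504, and row A of plate 52 was still low, at -1.43 and -1.78. Just outside the start, TA36H12 was at -0.45 and -0.70, while TA36H11 was at -1.75 and -1.69. The first member, TA37A01, was at -1.73 and -1.66. At the other end the last member, TA51H12, was at -1.58 and -2.17 and the next probe, TA52A01, at -1.498 and -1.97. The low level thus ran on past both borders, and plate 52 rose by rows to -1.06 and -1.04 in row B and -0.59 and -0.55 in row D, then to 0.05 and 0.21 in row E before row F was low again at -0.98 and -1.002.

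Compared with the other long low blocks, plates 37 to 51 lay near one and below the other. TA plates 21 to 30 (884 probes) had medians of -1.24 and -1.33, so plates 37 to 51 were lower by 0.32 in replicate I and 0.37 in replicate II, a mean difference of -0.34 ± 0.03 (SD, n = 2). The blocks were chosen by this level, and an exact sign-flip permutation test over 2 replicates cannot give a two-sided p under 0.5, so the differences between blocks are descriptions that were not tested. TC plates 17 to 30 (1122 probes) had medians of -1.56 and -1.68, a difference of -0.01 ± 0.02 (SD, n = 2). The latter difference was smaller than its spread, and with means in place of medians it was 0.055, in the other direction.

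The blocks also differed in their share of raised probes. Members at -1 or above made up 12.2% in replicate I and 11.6% in replicate II in plates 37 to 51, 36.3% and 33.8% in TA plates 21 to 30, and 8.11% and 6.68% in TC plates 17 to 30. By the same definition, raised stretches numbered 25 in TA plates 21 to 30 with 24.5% of its probes, and 3 in TC plates 17 to 30 with 1.07%. Among probes under -1 only, medians were -1.59 and -1.73 in plates 37 to 51, -1.44 and -1.58 in TA plates 21 to 30, and -1.58 and -1.69 in TC plates 17 to 30. The low probes of plates 37 to 51 were thus lower than those of TA plates 21 to 30 by 0.15 ± 0.01 (SD, n = 2) and differed from those of the TC plates by 0.03 ± 0.02. A limit at -1 cuts each block by the level that is compared, so these values do not divide the gap between blocks into parts. None of the differences is shown to be particular to the block.

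**Figure D5:**
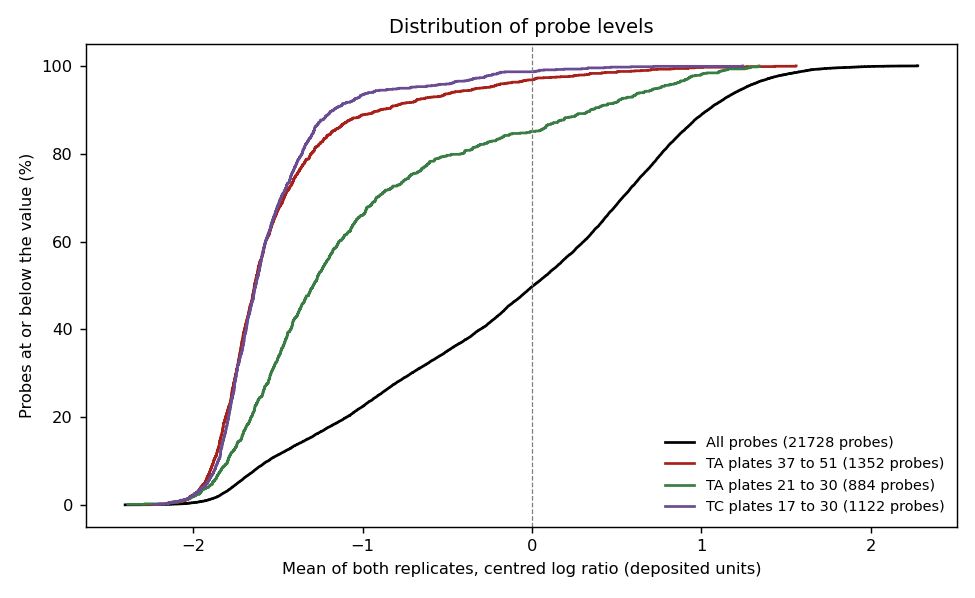
Cumulative percentage of probes (vertical axis) against the mean of both replicates as centred log ratio in deposited units (horizontal axis), for all 21728 probes and the 3 long low blocks. The curve of TA plates 37 to 51 runs close to that of TC plates 17 to 30 at low values and has a longer upper tail, while TA plates 21 to 30 rise more slowly.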

How the data were processed

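The deposited values, 1 column per array, are scores on a log ratio scale. Per the labels' protocols, 15 µg each of immunoprecipitated and input DNA were amplified, labelled directly with Cy3 and Cy5 and hybridised in both dye orientations. The background correction, the normalization, the log base and the direction of the ratio were not stated. The deposited median was -0.02 for replicate I and 0.47 for replicate II. Each profile was therefore shifted to a median of 0, with neither loess nor quantile normalization.

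Every probe of the array (21728) entered 1 intercept-only fit in limma (version 3.58.1, under R 4.3.3), with two-sided p-values and Benjamini-Hochberg adjustment at 0.05. With 1 residual degree of freedom per probe, most of the variance was pooled (prior degrees of freedom 117). The fit was also run on simulated data with far fewer changed probes than were called here. That run therefore does not check the counts of calls. The main mode came from a Gaussian kernel with a bandwidth of 0.1. Wells were ordered by plate, row and column. Plots were drawn with matplotlib 3.10.9, and the other values came from scipy 1.17.1, pandas 2.3.3 and numpy 2.4.6 under Python 3.11.15.

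Members, comparisons and the rule for named probes (the 5 highest and 5 lowest members, every member called higher, and both border probes with their outer neighbours) were chosen with earlier results of these data known. Other probes were named after their values were seen, to outline the stretches. Alternatives covered centring, scaling, threshold, minimum effect, prior degrees of freedom, plates, summaries and single replicates. The number of arrays limits the precision.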

Additional observations from a re-analysis of the deposited data

How the results depend on the processing

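Of 45 alternatives to 10 results, 34 left a count within 1.5 times or a value within the spread between replicates, 10 moved it and 1 reversed it. With n = 2, each replicate always lies within that spread of their mean. The alternatives that left out a replicate are among the 34 and could not have come out otherwise. Centred on the main mode, 7 members were called higher in place of 28 and the median was -2.20 in place of -1.63, because that centre shifts every value alike. The other 5 settings gave 20 to 27 members called higher, and all 6 gave 1229 to 1320 called lower. The mean over probes was -1.48, which the high tail raises. The standard deviation of plate levels was 0.13 with plate means, against 0.0905 with medians averaged over replicates. The spread within plates was 0.27 with the median absolute deviation and 0.41 without the probes called higher, against 0.47. The correlation of consecutive wells, averaged over replicates, was 0.571 with Spearman's rho, 0.566 without the probes called higher and 0.0215 down the columns, against 0.689. With means, the difference from TA plates 21 to 30 was -0.45, against -0.34, and that from TC plates 17 to 30 reversed to 0.055, against -0.013. The cause was not tested. The scaling of the 3 levels and the other limits for raised stretches were chosen after seeing the data. Limits of -0.8 and -1.2 gave 10 and 9 stretches with 61 and 72 members. Leaving out a replicate gave block medians of -1.70 and -1.56 and leaves no test of single probes. No paired analysis was possible because there is 1 group. Signal over background could not be examined, so how far the low values are limited by background is not known.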

Other observations

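Inside the block, the difference between replicates, replicate II minus replicate I, had a median of -0.145 in odd columns and -0.139 in even columns. In the TB plates these medians were 0.03 in odd and -0.04 in even columns. Whether the block differs from the TB plates in this was not tested.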
